A study of Mus musculus with 6 samples.

Results

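Long non-coding RNAs were followed in NIH-3T3 cells on a culture scaffold that the labels call Nanopore #3 and in the same cells on standard plates. The members were all genes of the deposited tables whose annotated class was lincRNA, antisense, processed transcript, sense intronic or bidirectional promoter lncRNA, which gave 98 of the 581 genes. Among them were 46 lincRNAs (long intergenic transcripts), 32 antisense transcripts, 14 processed transcripts, 5 sense intronic transcripts and 1 bidirectional promoter transcript. NIH-3T3 is an immortalised, wild-type mouse embryo fibroblast line, here kept in DMEM with 10% fetal bovine serum, and there were 3 scaffold libraries and 3 plate libraries of total RNA. The labels give neither the material of the scaffold nor the time in culture, and do not say whether the 3 libraries of a group were grown apart. The p-values therefore speak only of variation among these libraries, some of which may be technical. The authors had picked the 581 genes as differentially expressed on these same 6 libraries, and the smallest absolute log2 ratio of group means was 1.01 among the 98 members. No count of changed genes or p-value given here is therefore independent evidence of a difference.

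Long non-coding RNAs are transcripts that are often spliced and polyadenylated like mRNAs but have no long reading frame, and many stay in the nucleus. Some act as scaffolds for nuclear bodies, as Neat1 does for paraspeckles, some come from imprinted clusters, as Meg3 does, and many start beside a coding gene, on the other strand, from a promoter that fires both ways. Their levels are usually lower than those of mRNAs, and for most of them no function is known.

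Neat1 lies on the minus strand at chr19:5824708-5845478 (GRCm38) and has 4 annotated transcripts of 20771, 3004, 1030 and 711 bases. The short and the long main forms start within 2 bases of each other and end far apart, and the deposited value is 1 number over all forms. The last 140 bases of both are shown because the ends tell the forms apart. The sequences are from GENCODE M21, 5′ to 3′ on the minus strand. In the long form, at chr19:5824708-5824847, capitals mark a U-rich stretch and the A-rich stretch beside the end, which is known to fold into a triple helix in place of a poly(A) tail. Other bases that take part in that fold are not marked. In the short form, at chr19:5842307-5842446, capitals mark the polyadenylation signal.
Neat1-201 (long form): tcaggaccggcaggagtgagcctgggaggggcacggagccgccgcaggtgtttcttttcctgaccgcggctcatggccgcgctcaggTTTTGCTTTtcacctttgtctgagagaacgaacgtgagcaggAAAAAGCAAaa
Neat1-202 (short form): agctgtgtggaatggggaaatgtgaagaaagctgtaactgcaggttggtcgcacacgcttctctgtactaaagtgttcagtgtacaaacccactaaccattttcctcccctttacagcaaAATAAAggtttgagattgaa

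Of the members, 7 lie head to head with a coding gene, that is, their nearest coding gene is read away from them on the other strand, begins within 1000 bp and does not overlap them. The promoters of 4 of these are shown because the stretch between both starts is the shared part. Each runs from 250 bases before to 50 bases after the start of the long non-coding RNA in RefSeq (GRCm38.p6), 5′ to 3′ on the minus strand, and capitals mark the bases between the starts of both genes in GENCODE M21. Coordinates are chr12:33147537-33147836 for F730043M19Rik beside Atxn7l1, chr2:14073885-14074184 for Stamos beside Stam, chr5:36464805-36465104 for 2210406O10Rik beside Grpel1 and chr7:98702879-98703178 for Gm15506 beside Thap12.
F730043M19Rik (lower on the scaffold): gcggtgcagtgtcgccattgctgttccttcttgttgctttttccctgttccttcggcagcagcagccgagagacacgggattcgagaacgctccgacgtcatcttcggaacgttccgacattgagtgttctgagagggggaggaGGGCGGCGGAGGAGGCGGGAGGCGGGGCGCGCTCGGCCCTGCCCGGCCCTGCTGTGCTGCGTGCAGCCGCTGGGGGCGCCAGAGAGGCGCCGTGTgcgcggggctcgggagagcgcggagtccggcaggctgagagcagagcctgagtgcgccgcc
Stamos (higher on the scaffold): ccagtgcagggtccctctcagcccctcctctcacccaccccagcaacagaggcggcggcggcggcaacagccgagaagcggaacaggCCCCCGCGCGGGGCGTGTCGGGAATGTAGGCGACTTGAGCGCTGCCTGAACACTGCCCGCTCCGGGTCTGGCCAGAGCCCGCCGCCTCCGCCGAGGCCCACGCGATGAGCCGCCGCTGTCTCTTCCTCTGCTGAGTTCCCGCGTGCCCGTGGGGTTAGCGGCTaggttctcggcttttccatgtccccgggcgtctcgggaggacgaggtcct
2210406O10Rik (higher on the scaffold): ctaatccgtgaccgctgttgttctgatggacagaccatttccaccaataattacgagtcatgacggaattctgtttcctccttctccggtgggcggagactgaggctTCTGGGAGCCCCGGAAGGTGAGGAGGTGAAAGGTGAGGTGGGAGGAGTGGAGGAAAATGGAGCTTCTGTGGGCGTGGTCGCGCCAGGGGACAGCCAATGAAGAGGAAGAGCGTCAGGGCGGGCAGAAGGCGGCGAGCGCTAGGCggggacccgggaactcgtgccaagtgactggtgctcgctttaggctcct
Gm15506 (lower on the scaffold): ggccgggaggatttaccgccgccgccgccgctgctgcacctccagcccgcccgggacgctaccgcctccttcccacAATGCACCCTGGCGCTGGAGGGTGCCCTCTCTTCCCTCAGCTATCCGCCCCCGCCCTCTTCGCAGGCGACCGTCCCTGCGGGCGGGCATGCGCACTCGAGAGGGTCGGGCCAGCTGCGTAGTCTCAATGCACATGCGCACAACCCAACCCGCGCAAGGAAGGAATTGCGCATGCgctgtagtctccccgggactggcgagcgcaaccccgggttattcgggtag
The stretch between the starts was 95 bases in F730043M19Rik, 163 in Stamos, 144 in 2210406O10Rik and 174 in Gm15506. GC content over the 300 bases was 68.7% in F730043M19Rik, 70.3% in Stamos, 59.3% in 2210406O10Rik and 69.0% in Gm15506.

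All values are normalised read counts, that is, reads per gene divided by a size factor of the library, and log2 fold changes are differences of log2(value + 1), scaffold minus plate, which understate the change of low genes. On the scaffold 82 of the 98 long non-coding RNAs were lower and 16 were higher, at an adjusted p under 0.05 in limma. Over all 581 genes, 99.7% were called, 67.5% lower and 32.2% higher. Of the long non-coding RNAs 83.7% were lower, beside 271 of the 416 coding genes of the tables (65.1%). In bulk libraries fewer cells of a kind and less RNA per cell cannot be told apart. The median log2 fold change was -1.30 over the members, -1.14 over the coding genes and -1.16 over all genes. The values of scaffold and plate libraries did not overlap in 96 members (98.0%), beside 98.6% of all genes. The 2 members whose values overlapped were 1700007J10Rik and Gm16159. How many members were called lower depended on the scaling. With libraries rescaled to equal medians over the 581 genes, 16 of the 98 members were higher and 33 lower. Over all genes the shares were 32.5% and 34.4%. Quantile normalisation also gave 16 higher and 33 lower, beside 32.2% and 36.1% of all genes. A TMM scaling of the reads of 5 libraries gave 16 of the 98 higher and 9 lower, beside 32.5% and 10.2% of all genes. In it 4 members lower as deposited, Gm17275, C730002L08Rik, A930001C03Rik and Gm15792, were slightly higher. Over the 581 genes these scalings shifted the median change by 0.74, 0.63 and 1.05 on the log2 scale. They use only selected genes, most of them lower on the scaffold, so they do not test the deposited scaling. DESeq2 on the reads of 5 libraries gave 15 higher and 75 lower, beside 31.0% and 64.4% of all genes. A test against a 2-fold minimum gave 7 higher and 10 lower, beside 11.2% and 11.0%.

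**Figure D1:**
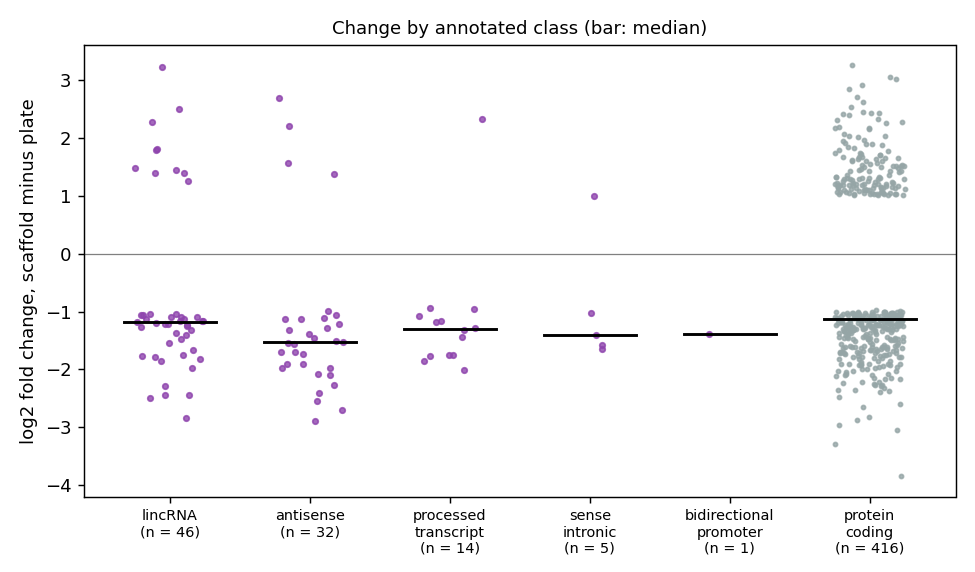
Log2 fold change (scaffold minus plate, as deposited) of every long non-coding RNA by annotated class, and of the coding genes of the tables, 1 point per gene with a bar at the median. The gap around 0 is the authors' selection, and 16 of the 98 long non-coding RNAs lie above it.

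By class, 10 of 46 lincRNAs, 4 of 32 antisense transcripts, 1 of 14 processed transcripts and 1 of 5 sense intronic transcripts were higher, and the single bidirectional promoter transcript was lower. The median log2 fold change was -1.19 in lincRNAs, -1.53 in antisense transcripts, -1.30 in processed transcripts and -1.41 in sense intronic transcripts. Per kilobase of gene length the median level over the 6 libraries was 11.7 normalised reads in antisense transcripts, 10.6 in lincRNAs, 7.84 in processed transcripts and 16.6 in sense intronic transcripts. Among the 49 members with fewer reads the median log2 fold change was -1.74, and among the 49 with more reads it was -1.13. Because genes entered the tables by their change, these medians describe the selected members and carry no test. Of the 98, 47 share exon sequence with another annotated gene, and strand-aware counting is not stated in the labels, so no read there can be given to 1 gene with certainty. Among the 51 that share none, 12 were higher and 39 lower. Some of these, such as Gm43031 in Akap9, still overlap the span of a coding gene, as 57 of all 98 members do.

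Most members had few reads. The median level was 11.3 normalised reads per kilobase, against 18.1 in the coding genes of the tables, and the median number of normalised reads per member was 24.2. A mean under 50 was found in 80 members, a mean of 100 or more in 11, and a mean over 1000 in Neat1 alone. Summed over the 98 members, the libraries held 12060, 12146 and 12526 normalised reads on the scaffold, against 24002, 25997 and 23914 on plates. Neat1 took 65.5%, 65.0% and 65.1% of that sum on the scaffold, against 77.4%, 77.5% and 76.5% on plates. Without Neat1 the sum was 4258 ± 104 on the scaffold and 5623 ± 217 on plates (SD, n = 3 each). The 16 higher members summed to 2314 ± 163 on the scaffold and 796 ± 4.56 on plates, and the other 81 to 1944 ± 97.0 on the scaffold and 4827 ± 220 on plates. These sets were formed by the direction of their members' own change, so their sums are a description.

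**Figure D2:**
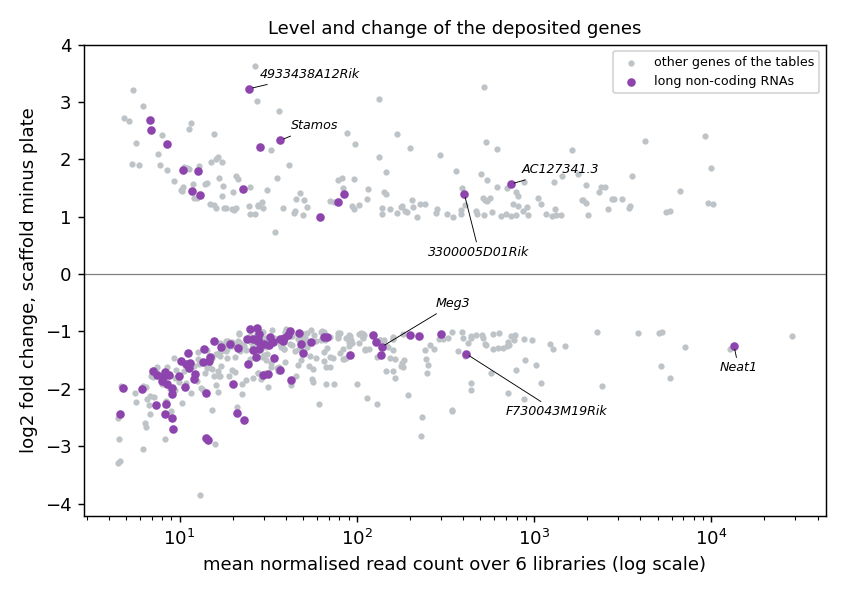
Mean normalised read count over the 6 libraries (log axis) against log2 fold change, scaffold minus plate, for the 98 long non-coding RNAs and the other 483 genes of the tables. Neat1 stands apart from the other long non-coding RNAs at the right, and their largest changes in both directions lie at low counts.

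Neat1, the RNA around which paraspeckles form, had the most reads of all long non-coding RNAs of the tables and fell on the scaffold. It had 7899, 7900 and 8159 normalised reads in the scaffold libraries, against 18589, 20150 and 18303 in the plate libraries. The 3 scaffold libraries lay close together, and every plate library was far above them. The means were 7986 ± 149 on the scaffold and 19014 ± 994 on plates (SD, n = 3 each), which is 2.38-fold lower (log2 fold change -1.25, SE 0.0526, limma adjusted p = 7.99e-08). Leaving out any 1 library gave -1.28 to -1.21. With libraries rescaled to equal medians the log2 fold change was -0.51, and with the TMM scaling it was -0.27 and no longer past the threshold (edgeR adjusted p = 0.0616). Reads of the short and the long form, shown above by their ends, cannot be told apart in these values. A list of 38 paraspeckle proteins and genes of the Neat1 locus, among them Sfpq, Nono and Malat1, had no gene in the tables, and they were not analysed here.

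Meg3, a maternally expressed RNA of the imprinted Dlk1-Dio3 cluster (chr12:109541001-109571726, plus strand), fell as well. It had 93.6, 71.0 and 79.2 normalised reads on the scaffold, against 199, 199 and 190 on plates. All scaffold libraries were below all plate libraries, and the log2 fold change was -1.27 (SE 0.149, adjusted p = 4.55e-05). Of 19 symbols on a fixed list, most of them imprinted or dosage-related long non-coding RNAs, it was the only one in the tables. The Meg3 promoter is shown because it holds a cAMP response element, TGACGTCA, in capitals (RefSeq, GRCm38.p6, chr12:109540746-109541045, plus strand).
Meg3: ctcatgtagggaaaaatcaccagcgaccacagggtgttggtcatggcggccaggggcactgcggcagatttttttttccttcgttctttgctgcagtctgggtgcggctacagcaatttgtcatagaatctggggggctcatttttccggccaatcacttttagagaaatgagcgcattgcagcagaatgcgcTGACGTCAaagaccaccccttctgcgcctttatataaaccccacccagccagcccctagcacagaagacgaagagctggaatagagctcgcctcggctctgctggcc
The same 8 letters, which read alike on both strands, occur in 1.79% of all 32851 RefSeq promoters of this length.

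Of the members, 9 carry an established symbol, and 7 of them were lower on the scaffold. Trp53cor1 (lincRNA-p21), a p53-induced RNA that starts 11796 bp from Cdkn1a and is read away from it, had 30.8, 19.1 and 29.7 normalised reads on the scaffold, against 49.7, 61.7 and 54.2 on plates. The groups did not overlap, and the log2 fold change was -1.05 (adjusted p = 0.00239). Of its exon length 44.1% is shared with opposite-strand genes, mainly AC167363.1. Cdkn1a itself, the cell cycle inhibitor p21, is not among the 581 genes and was not analysed here. Hoxaas3, an antisense RNA of the Hoxa cluster, had 19.5, 24.4 and 27.7 on the scaffold, against 49.7, 71.0 and 40.9 on plates, a log2 fold change of -1.12 (adjusted p = 0.00255). It shares 30.7% of its exon length with Hoxa7 and Hoxa3 on the other strand and with Gm28308. Lncenc1, known from embryonic stem cells, had 14.4, 16.9 and 19.8 on the scaffold, against 40.5, 37.0 and 37.1 on plates (-1.13, adjusted p = 0.00137). None of the scaffold libraries reached the lowest plate library in Hoxaas3 or Lncenc1. Under the TMM scaling the calls of Meg3 (-0.27), Trp53cor1 (-0.16), Hoxaas3 (-0.30) and Lncenc1 (-0.30) were lost, and under equal medians those of Trp53cor1 (-0.31), Hoxaas3 (-0.37) and Lncenc1 (-0.38), which were lost under quantile normalisation as well.

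The antisense transcripts Zeb2os and Tnfsf13os had few reads and fell. Zeb2os, which overlaps the gene of the transcription factor Zeb2 on the other strand and shares 48.2% of its exon length with it and with other models, had 1.03, 1.06 and 1.98 normalised reads on the scaffold, against 9.19, 6.17 and 9.52 on plates. This rested on 2 reads in scaffold replicates 1 and 2 together and 26 reads on plates, a ratio of plate over scaffold, corrected for the size factors, of 8.01 with an exact 95% interval of 2.01 to 69.6 that covers counting error only. The log2 fold change was -1.98 (adjusted p = 0.00166). Tnfsf13os, opposite the gene of the cytokine APRIL, had 3.08, 1.06 and 3.96 on the scaffold, against 17.5, 12.3 and 4.76 on plates. The highest scaffold library lay just under the lowest plate library, and the log2 fold change of -1.70 (adjusted p = 0.0122) became -1.34 with an adjusted p of 0.0557 without plate replicate 1. The call of Tnfsf13os was also lost under equal medians (-0.95, adjusted p = 0.126), quantile normalisation (-0.75, adjusted p = 0.225) and the TMM scaling (-1.46, edgeR adjusted p = 0.168). That of Zeb2os was lost under quantile normalisation (-1.02, adjusted p = 0.0764) and the TMM scaling (-1.94, edgeR adjusted p = 0.0670).

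Stamos and Npn2 were the established symbols that rose. Stamos (chr2:14070332-14073934, minus strand), read away from the gene of the endosomal sorting protein Stam, had 41.1, 64.6 and 83.1 normalised reads on the scaffold, against 11.95, 12.3 and 9.52 on plates. The scaffold libraries differed by about as much as the lowest of them held, yet each was above every plate library. The mean was 5.59-fold higher (log2 fold change 2.33, SE 0.296, adjusted p = 7.60e-05), between 2.11 and 2.61 when any 1 library was left out. Npn2, within the span of the actin-binding gene Cald1 on the other strand, had 21.6, 14.8 and 20.8 on the scaffold, against 9.19, 4.12 and 7.61 on plates (1.37, adjusted p = 0.00438).

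**Figure D3:**
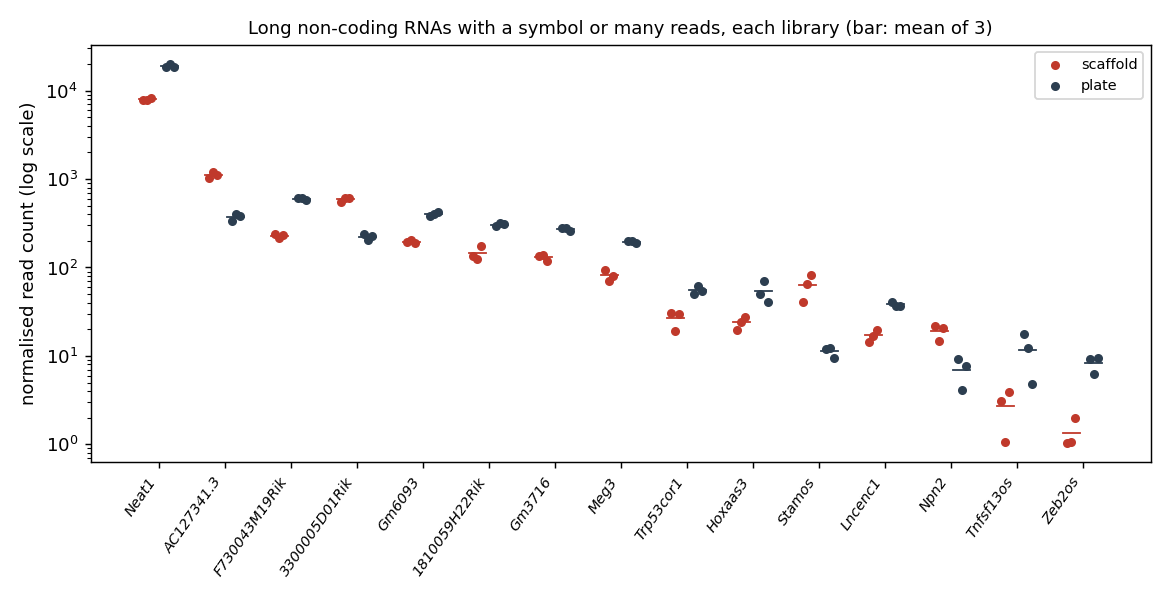
Normalised read counts (log axis) of the 9 long non-coding RNAs with an established symbol and the 6 others with the most reads, 3 scaffold points left of 3 plate points for each gene with a bar at the mean. As deposited, AC127341.3, 3300005D01Rik, Stamos and Npn2 are higher on the scaffold and the others lower, with no overlap between the groups.

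Beside Neat1, members without an established symbol but with many reads differed in both directions. AC127341.3, an antisense transcript that starts 21 bp from the start of Hmga1, the gene of a chromatin architectural protein, had 1026, 1185 and 1112 normalised reads on the scaffold, against 331, 402 and 386 on plates. Every scaffold library was far above the highest plate library, and the log2 fold change was 1.57 (SE 0.107, adjusted p = 1.31e-06). Hmga1 and AC127341.3 overlap by spans on opposite strands, and 3.46% of the exon length of AC127341.3 is shared with Hmga1 and Gm49773 on the other strand together. Hmga1 is not among the 581 genes and was not analysed here. 3300005D01Rik, a lincRNA (chr17:5798657-5803240, plus strand), had 549, 604 and 611 on the scaffold, against 239, 203 and 228 on plates (1.39, adjusted p = 3.18e-06). F730043M19Rik, the bidirectional promoter transcript, had 240, 216 and 232 on the scaffold, against 617, 602 and 585 on plates (-1.39, adjusted p = 1.81e-06). These 3 genes differed 2.63-fold to 2.97-fold with no overlap of the groups. Smaller falls were measured in Gm6093 (196 ± 7.15 on the scaffold and 406 ± 21.1 on plates), 1810059H22Rik (145 ± 24.9 on the scaffold and 305 ± 10.96 on plates) and Gm3716 (131 ± 9.60 on the scaffold and 272 ± 13.3 on plates; SD, n = 3 each). Their log2 fold changes were -1.05, -1.08 and -1.05, and under equal medians none of the 3 was past the threshold (-0.30, -0.34 and -0.31), nor under the TMM scaling (-0.029, -0.23 and -0.0051).

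Set per kilobase of gene length, the order of the members with the highest levels differed between the surfaces. On the scaffold, 3300005D01Rik led with 398, 437 and 443 normalised reads per kilobase, next to Neat1 with 380, 380 and 393. On plates, Neat1 led with 895, 970 and 881, and 3300005D01Rik was at 173, 147 and 166. Gm28119, a short sense intronic transcript, came next to Neat1 on plates with 676 ± 172 reads per kilobase, and had 248 ± 39.5 on the scaffold (SD, n = 3 each, scaffold below plates). Gm29323 had 101.5 ± 28.5 on the scaffold and 229 ± 33.4 on plates, where its level came next in order. Under the TMM scaling the calls of Gm28119 (-0.56) and Gm29323 (-0.41) were lost, and that of Gm29323 also under equal medians (-0.43, adjusted p = 0.128) and quantile normalisation (-0.48, adjusted p = 0.107). On the scaffold the highest Neat1 library and the lowest 3300005D01Rik library lay within 5.13 reads per kilobase of each other. Neat1 was divided by the length of its long form, 20771 bases, while its short form has 3004. Reads of these forms cannot be told apart, so the order holds only for the annotated gene lengths.

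The largest rises were in members with few reads. 4933438A12Rik, a lincRNA, had 47.3, 33.9 and 52.5 normalised reads on the scaffold, against 10.1, 1.03 and 3.81 on plates (log2 fold change 3.23 with an SE of 0.548, adjusted p = 0.000457). The scaffold libraries were far above all plate libraries, while the plate libraries differed among themselves, so leaving out plate replicate 1 gave 3.84 and leaving out plate replicate 2 gave 2.62. 5031415H12Rik, antisense within the span of Dlgap1, had 47.3, 37.1 and 55.4 on the scaffold, against 7.36, 5.15 and 19.04 on plates (2.22). D5Ertd615e had 12.3, 15.9 and 15.8 on the scaffold, against 1.84, 3.09 and 1.90 on plates (2.27), and groups did not overlap in either gene. Gm40578 had 15.4, 12.7 and 8.91 on the scaffold, against 1.84, 0 and 1.90 on plates (2.69), with 29.4% of its exon length shared with Tnfaip2 on the other strand. Gm45833 had 13.4, 10.6 and 11.9 on the scaffold, against 0, 1.03 and 4.76 on plates (2.51), and 1.92 and 3.18 without plate replicates 1 and 3. Both rest on a few plate reads per library. Gm17322, a lincRNA that overlaps the steroid synthesis gene Cyp11a1, had 9.25, 22.2 and 18.8 on the scaffold, against 6.44, 2.06 and 3.81 on plates (1.81, adjusted p = 0.00386).

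The largest falls were also at low counts, and single libraries moved them. A530020G20Rik, antisense to the choline transporter-like gene Slc44a3, had 7.20, 4.24 and 0 normalised reads on the scaffold, against 22.1, 27.8 and 25.7 on plates (log2 fold change -2.90 with an SE of 0.681, adjusted p = 0.00258). Plate libraries were alike and scaffold libraries were not, so leaving out scaffold replicate 1 gave -3.51 and leaving out scaffold replicate 3 gave -1.99. Gm16267, which shares 38.1% of its exon length with F730043M19Rik on the other strand, had 5.14, 0 and 5.94 on the scaffold, against 18.4, 29.8 and 25.7 on plates (-2.85, and -1.95 without scaffold replicate 2). 2410021H03Rik had 2.06, 4.24 and 0 on the scaffold, against 18.4, 20.6 and 9.52 on plates (-2.70, and -2.03 without scaffold replicate 3). Scaffold values of these 3 genes stayed under 8 normalised reads in every library. Gm44956, 13866 bp from Irs2, had 6.17, 2.12 and 0 on the scaffold, against 11.95, 13.4 and 20.9 on plates (-2.50, and -3.18 or -1.76 without scaffold replicate 1 or 3). Gm3830 had 4.11, 0 and 2.97 on the scaffold, against 16.6, 16.5 and 9.52 on plates (-2.44, and -1.71 without scaffold replicate 2). With a pseudocount of 0.01 the calls of Gm16267, Gm3830 and Gm44956 were lost (adjusted p = 0.0514, 0.0563 and 0.0552). Under the TMM scaling those of 2410021H03Rik (-1.35), Gm44956 (-0.90) and Gm3830 (-1.75) were lost, the last also under quantile normalisation (-1.52).

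Coding neighbours were next compared, since many long non-coding RNAs overlap or adjoin a coding gene. In the whole annotation the nearest coding gene of 91 members is not among the 581 genes, so that gene was not analysed here. Within 10 kb, overlaps included, 8 members had a coding gene of the tables, and in all 8 pairs both were lower on the scaffold as deposited, while C730002L08Rik was not lower under the TMM scaling. Gm43150 and Gm43151 share the neighbour Medag, so the 8 pairs are not independent. Lower values were found in 83.7% of all members and in 65.1% of the coding genes of the tables. Distinct pairs of coding genes of the tables within 10 kb moved the same way in 13 of 16 (81.2%). In 7 of the 8 pairs the spans overlap, so that some reads may count for either gene. When overlaps are set aside, 1 pair is left. Gm16008, Gm16170 and Gm30873 share exon sequence with their neighbour on the other strand. The other overlapping pairs share none, and Hoxaas3 and 5730596B20Rik lie on the same strand. Within 100 kb, 12 of 15 member pairs and 34 of 37 coding pairs moved the same way.

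C730002L08Rik, antisense to the retinaldehyde dehydrogenase gene Aldh1a1, had 22.6, 29.7 and 15.8 normalised reads on the scaffold, against 55.2, 36.0 and 60.9 on plates (log2 fold change -1.13, adjusted p = 0.00438), and 0.033 under the TMM scaling. Aldh1a1 had 4161, 2560 and 1607 on the scaffold, against 9016, 8780 and 9188 on plates (-1.80, adjusted p = 0.000188). Both were lower in every scaffold library, and they share no exon sequence. Gm43150 and Gm43151 lie within the span of the adipogenesis gene Medag on the other strand. Gm43150 had 17.5, 4.24 and 1.98 on the scaffold, against 27.6, 43.2 and 44.7 on plates (-2.55, and -3.29 without scaffold replicate 1). Gm43151 had 10.3, 6.36 and 2.97 on the scaffold, against 36.8, 32.9 and 38.1 on plates (-2.42). Medag had 1120, 891 and 704 on the scaffold, against 2125, 2120 and 2101 on plates (-1.25). In Medag, Gm43150 and Gm43151 scaffold replicate 1 was the highest scaffold library and replicate 3 the lowest, and each was below every plate library. That order is not particular to this locus: Aldh1a1, Col1a1 and Trim7 had it too, though Arnt2 did not.

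Gm16008, opposite the tumour necrosis factor receptor gene Tnfrsf18, shares 54.3% of its exon length with it and with Gm37090, and had 15.4 ± 1.91 on the scaffold and 40.6 ± 11.1 on plates. Tnfrsf18 had 13.1 ± 5.26 on the scaffold and 36.8 ± 5.67 on plates (SD, n = 3 each). Gm16170, opposite the ubiquitin ligase gene Trim7, had 5.17 ± 2.89 on the scaffold and 16.6 ± 5.47 on plates, and Trim7 44.1 ± 5.38 on the scaffold and 125 ± 11.98 on plates. In none of these 4 genes did a scaffold library reach a plate library. Gm30873, opposite the transcription factor gene Arnt2, had 3.75 ± 0.502 on the scaffold and 17.9 ± 4.53 on plates, and Arnt2 304 ± 22.6 on the scaffold and 639 ± 81.0 on plates. A730063M14Rik, which lies 487 bp from Agap2 on the same strand, had 18.7 ± 5.00 on the scaffold and 45.0 ± 10.6 on plates, and Agap2 91.5 ± 30.7 on the scaffold and 273 ± 13.4 on plates. Hoxaas3, described above, overlaps 5730596B20Rik on the same strand, which had 21.1 ± 12.1 on the scaffold and 57.5 ± 7.83 on plates. Under equal medians the calls of C730002L08Rik (-0.39), Gm16008 (-0.57), Gm16170 (-0.82) and A730063M14Rik (-0.49) were lost, as they were under quantile normalisation and the TMM scaling, and under the TMM scaling also those of Gm43150 (-0.84) and Gm30873 (-1.29).

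Farther away, 3 pairs moved in opposite directions. Gm14091 had 15.4, 19.1 and 8.91 on the scaffold, against 46.9, 47.3 and 51.4 on plates (-1.74), while Disp2, 18580 bp away, had 134, 140 and 153 on the scaffold, against 47.8, 79.2 and 60.9 on plates (1.20). Gm26826 was lower (-1.92) and the complement receptor gene C3ar1, 26523 bp away, higher (1.07). 3300005D01Rik was higher, as given above, and the palmitoyltransferase gene Zdhhc14, 44845 bp away, lower (-1.07). Lower in both genes were Tnfsf13os and Sat2 (-1.70 and -0.99), 9530082P21Rik and Cldn9 (-0.99 and -1.39) and A930001C03Rik and Pcx (-1.32 and -1.08), 58267, 59207 and 62139 bp apart, although A930001C03Rik was at 0.056 under the TMM scaling. Under equal medians the calls of 9530082P21Rik (-0.25) and A930001C03Rik (-0.57) were lost, as they were under quantile normalisation and the TMM scaling, and under the TMM scaling also those of Gm14091 (-0.50) and Gm26826 (-0.93). Gm17322 and the membrane semaphorin gene Sema7a, 35175 bp apart, were both higher. Sema7a had 6536, 7203 and 7397 on the scaffold, against 1375, 1385 and 1447 on plates (2.33, adjusted p = 8.62e-09).

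**Figure D4:**
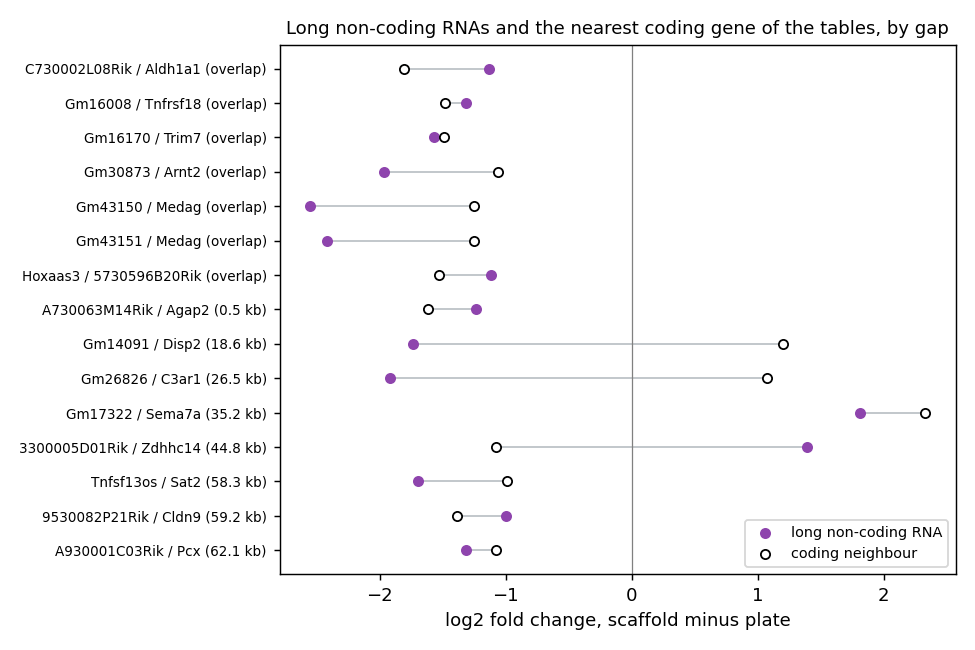
Log2 fold change (scaffold minus plate) of each long non-coding RNA and of the nearest coding gene of the tables within 100 kb, joined by a line and ordered from overlapping to 62.1 kb apart. In the deposited scaling the 8 nearest pairs lie on the left of 0 together, and 3 of the more distant pairs straddle it.

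The 7 members head to head with a coding gene lay 52 to 175 bp from it, as in the promoters shown above. None of the 7 partners is among the 581 genes, so only the non-coding side was analysed here. Stamos, 2210406O10Rik and 2210008F06Rik were higher, and F730043M19Rik, A730063M14Rik, BC030343 and Gm15506 lower. 2210406O10Rik, beside the mitochondrial chaperone cofactor gene Grpel1, had 17.5, 12.7 and 22.8 on the scaffold, against 6.44, 7.20 and 3.81 on plates (1.45, adjusted p = 0.00353), and its call was lost in DESeq2 (adjusted p = 0.0588). 2210008F06Rik, beside Ankrd13b, had 89.5, 127 and 154 on the scaffold, against 57.0, 43.2 and 37.1 on plates (1.40, adjusted p = 0.000517). BC030343, 52 bp from Zfp316, had 22.6, 11.7 and 20.8 on the scaffold, against 69.0, 68.9 and 61.9 on plates (-1.85, adjusted p = 0.000184). In each of these the groups were separate, most widely in BC030343. Gm15506, beside Thap12, had 15.4, 14.8 and 8.91 on the scaffold, against 37.7, 44.2 and 56.2 on plates (-1.76, adjusted p = 0.000383). Under the TMM scaling the calls of Gm15506 (-0.61) and A730063M14Rik (-0.49) were lost. Another 5 members, AC127341.3, A930001C03Rik, Gm26826, A530020G20Rik and A930007I19Rik, overlap their nearest coding gene on the other strand and start 21 to 877 bp from its start. As deposited 1 of these, AC127341.3, was higher and 4 were lower, and A930001C03Rik was slightly higher under the TMM scaling.

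**Figure D5:**
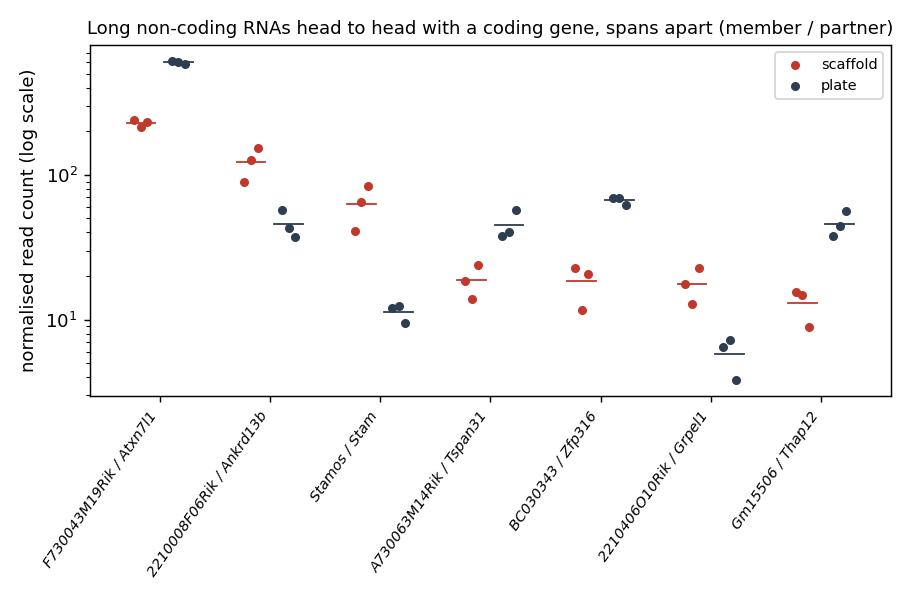
Normalised read counts (log axis) in each library of the 7 long non-coding RNAs whose nearest coding gene, named after the slash, begins within 1000 bp on the other strand without overlapping them, with 3 scaffold points left of 3 plate points and a bar at the mean. As deposited, for 3 of them the scaffold points are above the plate points and for 4 below.

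Gm28119, a sense intronic transcript at chr9:41581908-41582283 on the plus strand, shares 25.8% of its exon length with the microRNA gene Mir125b-1 on the same strand. It had 61.7, 75.2 and 85.1 normalised reads on the scaffold, against 143, 241 and 220 on plates (log2 fold change -1.41 with an SE of 0.217, adjusted p = 0.000256). All scaffold libraries were below all plate libraries. The mature microRNAs of this hairpin are shown because they lie inside the counted transcript (RefSeq, GRCm38.p6), at chr9:41581940-41581961 and chr9:41581980-41582001, with the seed, bases 2 to 8, in capitals.
mmu-miR-125b-5p: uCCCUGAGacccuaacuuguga
mmu-miR-125b-1-3p: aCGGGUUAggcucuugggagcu
The seeds of the arms differ. The levels of the mature microRNAs were not analysed here. A fixed list of 36 symbols, most of them host transcripts of small nucleolar RNAs or microRNAs such as Gas5 and Mir17hg, had no gene in the tables.

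Promoter sequences in RefSeq were matched by symbol for 47 members, and in 36 of them the start lay within 250 bases of the start in the files. Motifs were searched on both strands, and no motif contains another. The AP-1 motif TGANTCA was in 9 of these 36 promoters (25.0%), beside 7.81% of all 32851 promoters. It was in 9.25% of 11530 other long non-coding promoters and 13.1% of 412 promoters of coding genes in the tables. These other sets were not filtered by their start, and the difference in shares was not tested. Of the 9, 3300005D01Rik and Gm20758 were higher on the scaffold and 7, among them Gm6093 and 2410021H03Rik, lower. Lower were also 83.7% of all 98 members and 67.5% of all genes. The TATA box TATAAA was in 16.7% of the 36, beside 13.6% of all promoters, and the CCAAT box CCAAT in 38.9%, beside 37.4%. The E-box CACGTG was in 5.56%, beside 7.15%, and CRE and the EGR motif GCGTGGGCG were in 1 promoter each. The promoter of 3300005D01Rik is shown because this RNA had the highest level per kilobase of annotated gene length on the scaffold. The AP-1 and E-box motifs are in capitals (RefSeq, GRCm38.p6, chr17:5798407-5798706, plus strand). These matches are letters in a window and not measured binding.
3300005D01Rik: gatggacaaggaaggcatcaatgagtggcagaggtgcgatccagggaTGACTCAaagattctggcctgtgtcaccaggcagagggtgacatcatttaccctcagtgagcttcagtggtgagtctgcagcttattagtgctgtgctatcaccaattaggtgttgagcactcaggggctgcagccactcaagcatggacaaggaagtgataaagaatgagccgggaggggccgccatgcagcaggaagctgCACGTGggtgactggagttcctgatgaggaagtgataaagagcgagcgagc

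The 65 members not named by the rule were 59 lower and 6 higher, with log2 fold changes of -2.45 to 1.80. All 17 antisense and all 12 processed transcripts among them were lower, as were 26 of 31 lincRNAs and 4 of 5 sense intronic transcripts. The rule had already named the largest rises and every antisense and processed transcript that rose, so these counts follow in part from it. Beside this, 83.7% of all 98 members and 67.5% of all genes were lower. 1700006J14Rik, antisense to the architectural protein gene Hmga2, had 77.1, 66.7 and 97.0 on the scaffold, against 151, 170 and 183 on plates (-1.07, adjusted p = 0.000372). That call was lost under equal medians (-0.32, adjusted p = 0.125) and the TMM scaling (-0.23, edgeR adjusted p = 0.333). AC112949.1 had 92.5, 129 and 112 on the scaffold, against 47.8, 52.5 and 37.1 on plates (1.26, adjusted p = 0.000335). The groups did not overlap in either gene, both chosen for mention after their values were seen.

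The reads behind these values were 288435 and 276519 over the 581 genes in scaffold replicates 1 and 2, and 293198, 264178 and 286796 in the plate libraries, while those of scaffold replicate 3 were not counted. Of 10 fibroblast markers, Col1a1 and Col1a2 were in the tables. Col1a1 had 6607 to 8707 normalised reads on the scaffold and 17548 to 18544 on plates, and Col1a2 had 16604 to 21656 on the scaffold and 38646 to 38883 on plates. No leukocyte or endothelial marker (of 5 and 3) was in the tables. Krt8, the only one of 4 epithelial markers, had 29.8, 37.1 and 37.6 on the scaffold, against 17.5, 13.4 and 13.3 on plates. Afp, 1 of 2 serum or hepatocyte markers, had 8.23, 7.41 and 13.9 on the scaffold, against 1.84, 1.03 and 2.86 on plates. Of 23 immediate early and serum response transcripts, 8 were in the tables, 7 higher and 1 lower. The part of any of these in the changes of the long non-coding RNAs was not tested.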

How the data were processed

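RNA sequencing of NIH-3T3 cells gave 3 scaffold and 3 plate libraries, grouped by the sample labels. RNA was extracted with TRIzol and the NEBNext Ultra RNA library kit was used, according to the labels' protocols, which state neither strand use nor poly(A) selection. The submitters' processing notes name the tools DESeq2, HISAT2, HTSeq and fastp, with no version and no role for any of them. Deposited by the authors was, for 581 genes they had selected as differentially expressed, a normalised signal, that is, read counts divided by 1 size factor per library. The tables are named as FPKM, yet the values of each library were to 100% multiples of a single step (tolerance 0.01 read) that did not vary with gene length. Size factors from these steps ran from 0.944 to 1.09. No value column was left out.

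The processing notes name GRCm39, yet all 98 member identifiers were found in GENCODE M21 (GRCm38) and 95 had the same span, so coordinates are given as GRCm38.

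The test was that of limma 3.58.1 (R 4.3.3), two-sided, on log2(value + 1), with an intensity trend, a minimum mean of 0.5 that removed no gene, and Benjamini-Hochberg adjustment over all 581 genes at 0.05. With 3 libraries in each group the smallest exact permutation p is 0.1. The test had been planned for FPKM and stayed the same. Folds are ratios of group means, and per kilobase values use the gene length in the tables. Fits were tested on simulated data. As alternatives, edgeR 4.0.16 and DESeq2 1.42.0 were run on whole reads recovered from 5 libraries. Scaffold replicate 3 was left out of these by choice, its step of 0.99 being close to 1. Its values were to 100% multiples of that step, as in the other libraries. Further alternatives were leaving out each library, a replicate block, equal medians, quantile normalisation, no trend, a 2-fold minimum, pseudocounts of 0.1 and 0.01, and a minimum mean of 5 or none. Leaving out members that share exon sequence was added after seeing the data.

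Genes were named by a rule: members with an established symbol, the 6 others with the most reads, of the rest averaging 10 or more in their higher group with separate groups the 6 with the largest rise and the 6 with the largest fall, and members within 10 kb of a coding gene of the tables. This named 33 members. A further 12 were chosen after their values were seen, for a divergent partner, a neighbour in the tables, a shared microRNA gene or their level. A part of the rule on similarity to Neat1 was not used, because the libraries lie in 2 separate groups. The members and lists were chosen with earlier results of these data known.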

Additional observations from a re-analysis of the deposited data

How the results depend on the processing

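The count of 16 members higher was the same under every alternative except a 2-fold minimum (7) and DESeq2 (15), and among members that share no exon sequence (12). The count lower, 82 as deposited, was 33 under equal medians, 33 under quantile normalisation, 9 with edgeR and TMM, 10 with a 2-fold minimum and 39 among members that share no exon sequence. Leaving out 1 library gave 79 to 82 lower. The replicate number as a block left 16 higher and 82 lower, with 580 genes called over the tables. Deviations of same-numbered libraries correlated at -0.029, 0.073 and 0.058, and those of differently numbered libraries at -0.103 to 0.034. No pairing by number was visible in these selected genes, which cannot exclude one. Of the 45 members described, 1 lost its call when a library was left out. Under equal medians 15 lost it, under quantile normalisation 13 and with a 2-fold minimum 31. Under TMM 25 lost it with the same direction, and 2 more lost it with the direction reversed, C730002L08Rik at 0.033 and A930001C03Rik at 0.056. Median log2 fold changes under equal medians and quantile normalisation were -0.44 and -0.49 in lincRNAs, -0.78 and -0.67 in antisense, -0.55 and -0.63 in processed and -0.67 and -0.83 in sense intronic transcripts, and -1.70 in antisense transcripts with a pseudocount of 0.1. Equal medians moved the log2 fold change of every gene by the same 0.74. For quantile normalisation the cause was not tested. Leaving out 1 library gave medians of -1.28 to -1.13 in lincRNAs, -1.62 to -1.45 in antisense, -1.58 to -1.22 in processed and -1.64 to -1.11 in sense intronic transcripts. The count of 8 neighbour pairs moving the same way was 8 when any library was left out and 1 without overlapping spans. The deposited scaling could not be checked against whole libraries, and for members with few reads the size of a change depends on the pseudocount.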
